A study of Mus musculus with 17 samples.

Results

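Histone deacetylases, the enzymes that add or remove methyl groups on histones and DNA, and the subunits of nucleosome-remodelling complexes were followed in mouse neuroendocrine tumours. The genes were chosen by symbol: Hdac and Sirt deacetylases, Kdm demethylases, Setd, Mll and Ezh methyltransferases, Dnmt and Tet genes, and the Smarc, Chd, Arid and Brd families. The choice found 97 of the 23284 genes in the count tables, and 94 of the 97 reached a level of at least 1 CPM in some library (CPM values are read counts brought to the same total in each library).

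RNA was sequenced from 17 tumours, 9 of the genotype Rb1/Trp53 and 8 of the genotype Rb1/Trp53/Crebbp. All 17 tumours therefore carry the Rb1 and Trp53 alleles, and the groups differ by the Crebbp allele. The labels give every sample as a neuroendocrine tumour of the pituitary from a genetically engineered mouse, and they give no age, sex, strain, zygosity or Cre driver. Whether each tumour is from a different mouse is not stated, so p-values measure only the spread between these samples.

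Histone deacetylases remove acetyl groups that acetyltransferases such as Crebbp and its relative Ep300 place on histones and other proteins, and acetylated histones are a mark of active genes. Methyltransferases and demethylases set histone methylation that marks active or silent chromatin, Dnmt and Tet enzymes add and oxidise DNA methylation, and the remodellers move or evict nucleosomes. Crebbp is known as a tumour suppressor in small cell neuroendocrine cancer, and the study asked which genes it regulates in these tumours.

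The libraries were compared in 2 sets, since some did not carry the hormone gene of a Pomc-producing pituitary tumour. Libraries with a Pomc count above the Calca count, called Pomc-high, were 6 Rb1/Trp53 tumours (T2 and T5 to T9) and 4 Rb1/Trp53/Crebbp tumours (T5 to T8). The other 7, called Calca-high, were 3 Rb1/Trp53 tumours (T1, T3 and T4) and 4 Rb1/Trp53/Crebbp tumours (T1 to T4). Pomc, the hormone precursor of corticotrophs and melanotrophs, stood at 92700 to 317000 CPM in the Pomc-high libraries and at 3.6 to 64.6 CPM in the others. Tbx19, a transcription factor of Pomc-producing cells, was at most 0.318 CPM in the Calca-high libraries, with Calca, the calcitonin gene of thyroid C cells, at 34600 to 178000 CPM there. The Calca-high libraries thus went against the pituitary label at these defining markers. The full list of 8 melanotroph and corticotroph markers, which includes Pomc and Tbx19, summed to 2110 to 8530 CPM there. Most of that sum came from other members of the list, so not every marker of Pomc-producing cells was near absent. Because the sets rest on the counts and not on the labels, levels are described between them without a test.

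In the Calca-high libraries depth and markers of other cell types differed by genotype. Gene counts were 20361712 to 28140755 in the 3 Rb1/Trp53 libraries and 8328297 to 15490074 in the 4 Rb1/Trp53/Crebbp libraries, while in the Pomc-high libraries they were 8741091 to 19994394 and 9354598 to 13456360. Thyroid follicle markers such as Tg summed to 2130 to 16900 CPM in the Calca-high Rb1/Trp53 libraries and 932 to 1300 CPM in the Rb1/Trp53/Crebbp ones, with 5 of 5 lower, and fat cell markers to 28.7 to 141 and 6.24 to 10.2 CPM, with 4 of 4 lower. C cell markers summed to 119000 to 179000 CPM against 35200 to 68300 CPM, with 4 of 6 lower, and Calca itself fell by 1.41 ± 0.295 (SE) on the log2 scale (adjusted p = 0.00868, edgeR). Lymphocyte markers summed to 15.8 to 33.8 CPM against 2.97 to 8.49 CPM, with 1 of 1 tested lower. Melanotroph and corticotroph markers summed to 7250 to 8530 CPM against 2110 to 2990 CPM, with 2 of 5 tested lower and 1 higher. Their part in the results of this set was not tested. For Crebbp itself the log2 fold change (Rb1/Trp53/Crebbp over Rb1/Trp53) was -0.47 ± 0.23 (SE) in the Pomc-high libraries (adjusted p = 0.239) and 0.60 ± 0.12 in the Calca-high ones (adjusted p = 0.00723). Here and below, adjusted p-values are by Benjamini-Hochberg from the quasi-likelihood test of edgeR. Reads over the whole Crebbp gene were counted, so a deleted exon would not show. In the Calca-high set the genotype difference followed exon length over all genes, as described further down. All genes with exons over 8000 bases had a median log2 fold change of 0.546 there. The part of exon length in the Crebbp value was not tested. In the Pomc-high set markers of other anterior lobe cells such as Gh summed to 11.2 to 14000 CPM in the Rb1/Trp53 and 47.2 to 2330 CPM in the Rb1/Trp53/Crebbp libraries. They were highest in Rb1/Trp53 T6 (14000 CPM) and T8 (9700 CPM). Rb1/Trp53/Crebbp T8 stood apart in pituicyte and astroglia markers such as Gfap, at 551 CPM in sum against 7.65 to 52.5 CPM in the other 9 libraries of this set. It also had the lowest Pomc level of the set, 92700 CPM. The Arid5b and Hdac7 calls in this set were lost without it, and both are given below with and without it. Some differences between the sets were lost without it too, and these are named further down. The part of the pituicytes, astroglia and other anterior lobe cells was not tested.

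Levels are first given per kilobase of exon, so that genes can be compared with each other. In the Pomc-high libraries the median level was highest for Hdac11, the single class IV deacetylase, at 83.8 CPM per kilobase, followed by the SWI/SNF scaffold gene Smarcc2 at 59.4 and the acetyl-lysine reader Brd2 at 57.7. In the Calca-high libraries Chd4, the motor of the NuRD complex, led with a median of 82.4 CPM per kilobase, ahead of Smarcc2 at 77.0 and Smarcd2 at 75.8. The deacetylases thus had different leaders in the sets: Hdac11 and then Hdac1 (47.8 CPM per kilobase) in the Pomc-high libraries, and Hdac1 (61.6) and then Hdac3 (45.5) in the Calca-high ones. Hdac4 and Hdac9 were the lowest of the 11 Hdac genes in both sets, at 1.40 and 3.31 CPM per kilobase in the Pomc-high and 2.23 and 0.516 in the Calca-high libraries.

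The libraries of the sets did not overlap in the level of 22 genes, 15 higher in the Calca-high and 7 higher in the Pomc-high libraries, while 75 overlapped. All 22 were among the 94 members tested (23.4%), and the same held for 22.5% of 15432 genes, with 12% higher in the Calca-high and 10.6% higher in the Pomc-high libraries, so the share is near the background. Setdb2, a SET domain protein, stood at 4.19 to 6.75 CPM in the Pomc-high libraries and at 14.2 to 81.5 CPM in the Calca-high ones. Smarcd2 (50.7 to 80.9 against 191 to 257 CPM) and Setd8, which monomethylates histone H4 (20.2 to 27.5 against 59.4 to 97.3 CPM), were also higher in the Calca-high libraries. In the other direction stood Hdac11 (186 to 259 against 46.6 to 131 CPM), Hdac9 (23.7 to 48.1 against 2.37 to 10.7 CPM), the neuronal remodeller gene Chd5 (75.4 to 150 against 16.8 to 52.6 CPM) and Smarcd3 (27.9 to 53.0 against 6.05 to 14.3 CPM). In bulk RNA, fewer cells of a type and less RNA per cell cannot be told apart.

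Within the Pomc-high libraries few of the chromatin genes differed by genotype. Of 92 tested, 1 was higher and 4 were lower in the Rb1/Trp53/Crebbp tumours, against 3.15% higher and 5.26% lower among all 14010 genes tested, so the shares are near or below the background. Their median log2 fold change was 0.001, beside 0.013 over all genes. At an unadjusted p under 0.05 there were 23 of the 92, where the share over all genes was 25.4%. The 4 that fell were Arid3a, Arid3b, Arid5b and the class IIa deacetylase gene Hdac7, and the 1 that rose was Setd7.

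Arid3a encodes the B-cell factor Bright, a protein that binds AT-rich DNA. Its level in the 6 Rb1/Trp53 libraries ran from 12.7 to 19.2 CPM with a median of 16.7, and in the 4 Rb1/Trp53/Crebbp libraries it was 10.3, 8.51, 11.2 and 8.81 CPM. The groups did not overlap, which held for 5.77% of all tested genes in this direction. Arid3a fell by 0.76 ± 0.14 (SE) on the log2 scale (adjusted p = 0.00635, edgeR), and it was the only member to pass the threshold with each of the 10 libraries left out in turn.

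Arid3b, its paralog, ran from 9.84 to 15.6 CPM with a median of 11.8 in the Rb1/Trp53 libraries, against 7.57, 8.28, 7.14 and 5.69 CPM. The groups again did not overlap, and Arid3b fell by 0.72 ± 0.16 (adjusted p = 0.0177, edgeR). Without Rb1/Trp53/Crebbp T7 the call was lost (adjusted p = 0.0513).

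Arid5b, a DNA-binding partner of the demethylase Phf2, ran from 23.7 to 39.1 CPM with a median of 25.4 in the Rb1/Trp53 libraries and stood at 13.4, 22.5, 14.5 and 13.5 CPM in the others. T6 of the Crebbp group lay close to the Rb1/Trp53 range but below it. The gene fell by 0.75 ± 0.18 (adjusted p = 0.0231, edgeR), and the call was lost without Rb1/Trp53/Crebbp T5, T7 or T8 (adjusted p up to 0.0730), of which T8 is the library with glial markers. Without T8 the log2 fold change was -0.66 (adjusted p = 0.0533).

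Hdac7, which in complex with Mef2 factors represses their targets, ran from 39.2 to 60.6 CPM with a median of 47.4 against 37.4, 29.4, 33.6 and 29.3 CPM, without overlap. It fell by 0.54 ± 0.13 (adjusted p = 0.0240, edgeR), and leaving out Rb1/Trp53 T7 or Rb1/Trp53/Crebbp T6, T7 or T8 ended the call. Without T8, the library with glial markers, the log2 fold change was -0.48 (adjusted p = 0.0578). Endothelial cells are known to express Hdac7, and the summed level of 10 endothelial markers was 54.1 to 83.1 CPM in the Rb1/Trp53 libraries and 23.1 to 57.7 CPM in the others, with 2 of 9 tested lower. Macrophage markers summed to 112 to 338 against 27.7 to 190 CPM, with 1 of 10 lower. The part of these cells in the Hdac7 value was not tested.

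Setd7, a monomethyltransferase of histone H3 and other proteins, ran from 59.2 to 78.6 CPM with a median of 65.6 in the Rb1/Trp53 libraries and stood at 75.5, 92.6, 83.1 and 89.8 CPM in the others. The ranges overlapped, and Setd7 rose by 0.38 ± 0.10 (adjusted p = 0.0260, edgeR). The call was lost in 6 of the 10 fits that leave out 1 library: without Rb1/Trp53 T5, T7, T8 or T9, or without Rb1/Trp53/Crebbp T6 or T7 (adjusted p up to 0.0657).

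Other Hdac genes in the Pomc-high libraries did not pass the threshold. Hdac3, the catalytic subunit of nuclear corepressor complexes, stood nearest at 0.32 ± 0.09 on the log2 scale (adjusted p = 0.0525, edgeR), and Hdac6, the X-linked cytoplasmic tubulin deacetylase, had 0.34 ± 0.11 (adjusted p = 0.0678). Hdac6 levels did not overlap, at 41.9 to 61.5 CPM in the Rb1/Trp53 and 64.8 to 74.7 CPM in the Rb1/Trp53/Crebbp libraries, which held for 3.89% of all genes in this direction. The class I genes Hdac1, Hdac2 and Hdac8 had log2 fold changes between 0.03 and 0.19. None of the 14 demethylase, 9 Chd, 7 Brd, 13 Smarc, 7 sirtuin or 6 Dnmt and Tet genes tested in this set passed. Kdm6b, an H3K27 demethylase, came closest at -0.45 ± 0.13 (adjusted p = 0.0576). At an unadjusted p under 0.05 there were 2 demethylase, 0 Chd, 2 Brd, 5 Smarc, 0 sirtuin and 2 Dnmt and Tet genes.

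**Figure D1:**
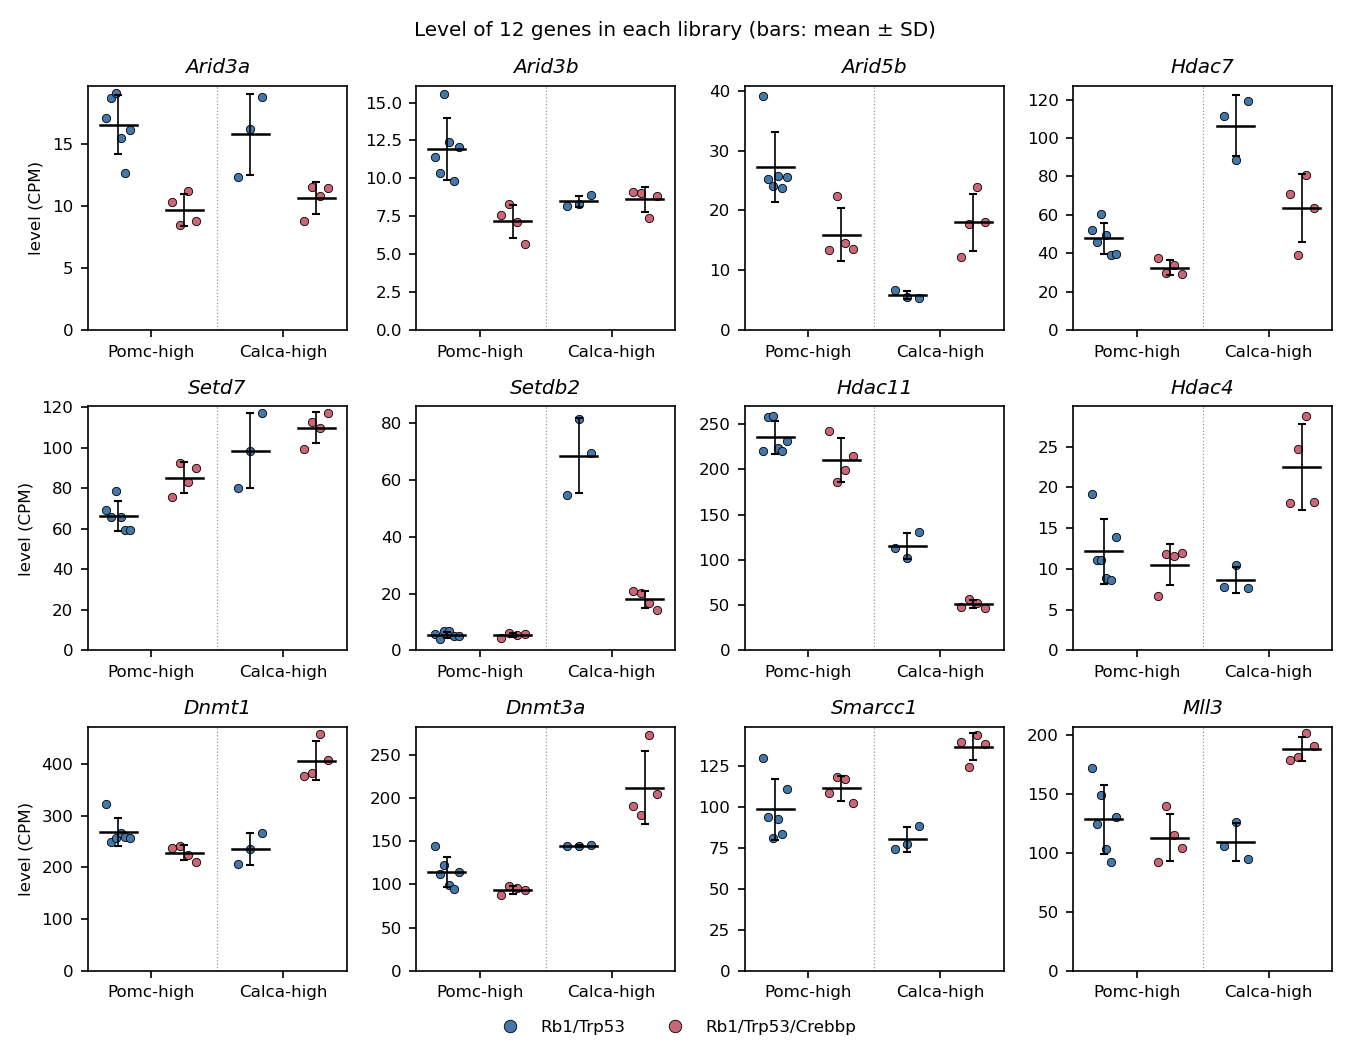
Level of 12 chromatin genes in CPM (vertical axes, each from 0) in each library, by set and genotype, with the mean and SD of each group as bars. Arid3a is lower in the Rb1/Trp53/Crebbp libraries of both sets, Arid5b goes down in the Pomc-high and up in the Calca-high libraries, and Setdb2 is at 14.2 CPM or above only in the Calca-high libraries.

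Within the Calca-high libraries 39 of 94 tested chromatin genes had risen in the Rb1/Trp53/Crebbp tumours and 8 had fallen. The background was large as well: of all 14797 genes tested 19.1% were higher and 17.1% lower. The chromatin genes had a median log2 fold change of 0.29, beside -0.018 over all genes. No overlap between the genotypes was seen for 46 genes that were higher and 12 that were lower, beside 21.8% and 22.6% of all genes. The genotype difference in this set followed exon length over all genes, as described further down, and chromatin genes are long, so these counts have to be read beside those of other long genes. With the length trend removed, an alternative chosen after seeing the data, 13 were higher and 9 lower, beside 12.3% and 12.5% of all genes.

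Among the deacetylases Hdac11 fell furthest. Its levels were 113, 102 and 131 CPM in the Rb1/Trp53 libraries and 48.3, 56.6, 52.1 and 46.6 CPM in the Rb1/Trp53/Crebbp libraries. Every library of the first group lay above every library of the second, and the change was -1.16 ± 0.11 on the log2 scale (0.446 of the Rb1/Trp53 level, adjusted p = 0.00084, edgeR). In the Pomc-high libraries the groups overlapped (220 to 259 against 186 to 242 CPM, log2 fold change -0.14 ± 0.10). An antisense gene model covers 22.4% of the exon bases of Hdac11 and the strand setting of the counting is not given, so reads of the 2 cannot be told apart.

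Of the class IIa deacetylases, which shuttle between nucleus and cytoplasm and act with Mef2 factors, Hdac5 and Hdac7 fell and Hdac4 rose. Hdac4 was 7.80, 10.4 and 7.68 CPM in the Rb1/Trp53 libraries and 18.04, 24.8, 28.8 and 18.2 CPM in the others, without overlap, a change of 1.39 ± 0.21 (2.63-fold, adjusted p = 0.00276, edgeR). Hdac7 was 111, 88.6 and 119 CPM against 71.0, 39.0, 80.5 and 63.5 CPM (-0.73 ± 0.23, adjusted p = 0.0375). Hdac5 was 131, 127 and 214 CPM against 108, 95.5, 118 and 94.1 CPM (-0.58 ± 0.18, adjusted p = 0.0408). Both falls were without overlap, but Hdac7 passed in 3 and Hdac5 in 2 of the 7 fits that leave out 1 library. Endothelial markers moved with Hdac7 here too, at 76.2 to 96.3 CPM in sum against 40.5 to 57.5 CPM with 7 of 10 lower, and their part was not tested. The class I genes Hdac1, Hdac2, Hdac3 and Hdac8 and the class IIb genes Hdac6 and Hdac10 did not pass, with log2 fold changes from -0.12 to 0.35.

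Among the sirtuins, the NAD-dependent deacetylases, 0 of 7 rose and 2 fell, beside 19.1% and 17.1% of all genes. Sirt2, a mainly cytoplasmic member, went from 87.0 to 99.3 CPM in the Rb1/Trp53 libraries to 63.9 to 77.6 CPM in the others (-0.39 ± 0.10, adjusted p = 0.0170, edgeR). The mitochondrial Sirt4 went from 26.0 to 26.7 CPM to 17.8 to 20.6 CPM (-0.43 ± 0.10, adjusted p = 0.0118). Neither passed with the length trend removed. At an unadjusted p under 0.05 there were 6 of the 7, beside 47.1% of all genes.

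Methyltransferases with a SET domain split between broad rises and 1 deep fall. Setdb2 was 54.8, 81.5 and 69.7 CPM in the Rb1/Trp53 libraries and 20.8, 20.2, 16.7 and 14.2 CPM in the Rb1/Trp53/Crebbp libraries. The gap between the groups was wider than either range, and the change of -1.92 ± 0.18 (0.264 of the Rb1/Trp53 level, adjusted p = 0.00078, edgeR) was the largest among the chromatin genes tested in this set. In the Pomc-high libraries Setdb2 did not differ by genotype beyond its spread (log2 fold change -0.01 ± 0.20).

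The other 10 SET genes that passed all rose. Setdb1, the H3K9 methyltransferase of the same family, stood at 49.1, 43.4 and 53.4 CPM against 83.0, 63.5, 77.1 and 69.7 CPM (0.61 ± 0.12, adjusted p = 0.00635, edgeR). Ezh2, the H3K27 methyltransferase of Polycomb complex 2, stood at 39.4, 39.0 and 46.8 CPM against 62.2, 52.1, 55.2 and 48.0 CPM (0.40 ± 0.11, adjusted p = 0.0280). The Ezh2 call was lost in 4 of the 7 fits that leave out 1 library, without Rb1/Trp53 T1 or T3 or Rb1/Trp53/Crebbp T1 or T3 (adjusted p up to 0.0982). In both genes every Rb1/Trp53/Crebbp library lay above the Rb1/Trp53 ones.

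The 4 Mll genes, of which Mll1, Mll2 and Mll3 encode the large H3K4 methyltransferases, all rose. Mll3 stood at 106, 127 and 95.1 CPM against 179, 182, 202 and 191 CPM (0.80 ± 0.11, adjusted p = 0.00219, edgeR), with no overlap. Mll2 (0.77 ± 0.15), Mll1 (0.72 ± 0.11) and Mll5 (0.48 ± 0.08) followed, and so did the H3K36 methyltransferase Setd2 (0.58 ± 0.08, adjusted p = 0.00188). With the length trend removed none of these 5 passed: Mll3 was at 0.11, Setd2 at 0.13 and Mll1 and Mll2 at -0.01. Setd1a (0.40 ± 0.11) also rose, but a gene model on the same strand covers 53.3% of its exon bases, so its value is uncertain.

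DNA methylation genes rose in 5 of 6 cases, beside 19.1% of all genes. Dnmt1, the maintenance DNA methyltransferase that copies methylation onto new strands, was 206, 235 and 266 CPM in the Rb1/Trp53 libraries and 376, 382, 458 and 406 CPM in the others. There was no overlap, and the change was 0.80 ± 0.12 (1.74-fold, adjusted p = 0.00234, edgeR). Tet1 (17.5 to 21.1 against 33.2 to 42.3 CPM, 0.89 ± 0.12), Tet2 (30.9 to 36.2 against 51.1 to 62.3 CPM, 0.75 ± 0.11) and Tet3 (57.7 to 78.2 against 107 to 131 CPM, 0.77 ± 0.12), the oxidases that start removal of the mark, rose together with the de novo enzyme Dnmt3a (0.57 ± 0.14). Of the 5, Dnmt1 passed with the length trend removed (0.50, adjusted p = 0.0202), while Tet1, Tet2, Tet3 and Dnmt3a stood at 0.20, 0.26, 0.18 and 0.03 and did not pass.

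Dnmt1 and Ezh2 are genes that dividing cells are known to express, and markers of dividing cells were higher in the same libraries. The 15 such markers, among them Mki67 and Top2a, summed to 1130 to 1500 CPM in the 3 Rb1/Trp53 and 2040 to 2350 CPM in the 4 Rb1/Trp53/Crebbp libraries, with 11 of 15 higher and 0 lower. In the Pomc-high libraries they summed to 677 to 1070 and 909 to 1280 CPM, with 0 of 15 higher or lower. Dnmt1 there was 250 to 323 CPM with a median of 257, against 238, 242, 223 and 210 CPM (-0.21 ± 0.09, adjusted p = 0.151, edgeR). The part of the dividing cells in the Dnmt1 and Ezh2 values was not tested.

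The start regions of Dnmt1 and Ezh2 are shown because each holds an E2F-type motif, the letters of the factors that RB proteins bind. Promoter windows (250 bases before to 50 after the start site) from RefSeq on GRCm38.p6 were found for 77 of the 97 genes. The searched letters were TTTCCCGC and TTTGGCGC on both strands, and 6 of 77 genes (7.79%) held a match, beside 1.8% of all 27025 genes with a window: Arid1a, Brd7, Dnmt1, Ezh2, Sirt4 and Smarcd1. The cAMP response element TGACGTCA, searched because Crebbp is named for the factor that binds it, was in the windows of 0 of the 77 genes, beside 2.03% of the 27025 genes. The 27025 genes are more than the 23284 of the count tables, so both shares of all genes include genes not measured here. By window the E2F-type shares were 5.61% of 107 and 1.56% of 32851, and enrichment was not tested. The Dnmt1 window is chr9:20952574-20952873 and the Ezh2 window chr6:47594981-47595280, both on the minus strand, written 5′ to 3′ along the gene with the motif in capitals. The match begins 33 bases after the start site in Dnmt1, in 1 of its 3 windows, and 3 bases after it in Ezh2. A match describes letters only and is not a measured binding site.
Dnmt1: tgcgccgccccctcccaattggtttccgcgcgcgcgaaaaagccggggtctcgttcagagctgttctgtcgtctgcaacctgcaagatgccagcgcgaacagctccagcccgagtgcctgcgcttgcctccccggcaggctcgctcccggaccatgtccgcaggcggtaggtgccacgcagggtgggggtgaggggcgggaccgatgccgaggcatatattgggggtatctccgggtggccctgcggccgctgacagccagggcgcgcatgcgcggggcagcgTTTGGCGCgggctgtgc
Ezh2: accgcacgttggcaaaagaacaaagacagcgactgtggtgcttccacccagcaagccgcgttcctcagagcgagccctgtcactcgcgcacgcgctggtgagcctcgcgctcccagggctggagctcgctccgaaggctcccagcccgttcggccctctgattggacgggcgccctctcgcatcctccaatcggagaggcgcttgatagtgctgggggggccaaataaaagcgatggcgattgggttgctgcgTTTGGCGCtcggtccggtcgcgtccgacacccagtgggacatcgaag

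Of the 6 genes with the motif, Arid1a, Brd7, Dnmt1 and Ezh2 rose in the Calca-high libraries, where 39 of 94 chromatin genes and 19.1% of all genes did. Sirt4 fell there and Smarcd1 did not pass (0.14 ± 0.15), and none of the 6 passed in the Pomc-high libraries. Arid1a, the largest DNA-binding subunit of the canonical BAF complex, rose by 0.56 ± 0.12 (183 to 220 against 256 to 343 CPM) and Brd7, a subunit of the PBAF complex, by 0.47 ± 0.15 (33.7 to 48.1 against 51.7 to 65.0 CPM). With the length trend removed Arid1a, Brd7 and Sirt4 did not pass, while Dnmt1 and Ezh2 did.

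Lysine demethylases rose in 8 of 15 tested cases and fell in 0, beside 19.1% and 17.1% of all genes. Kdm3a, an H3K9 demethylase, stood at 38.3 to 53.4 CPM against 62.3 to 96.5 CPM (0.76 ± 0.17, adjusted p = 0.0103, edgeR). Kdm5a, an H3K4 demethylase that was first known as a protein binding the retinoblastoma protein, stood at 46.6 to 55.9 against 70.5 to 88.6 CPM (0.63 ± 0.11, adjusted p = 0.00516). Kdm2a, Kdm2b, Kdm3b and Kdm4b also rose, by 0.28 to 0.50. With the length trend removed Kdm2a, Kdm2b, Kdm3b, Kdm4b and Kdm5a did not pass. Kdm1a, the flavin-dependent demethylase of the CoREST complex, stood at 119 to 138 against 117 to 139 CPM and did not pass (0.02 ± 0.09).

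The largest rises among the demethylases were in the X-linked genes Kdm6a and Kdm5c, which partly escape X inactivation. Kdm6a was 36.3, 36.0 and 30.3 CPM in the Rb1/Trp53 libraries, 47.5 CPM in Rb1/Trp53/Crebbp T1 and 78.1, 77.6 and 71.0 CPM in T2 to T4 (1.02 ± 0.18, adjusted p = 0.00441, edgeR). Kdm5c was 55.7, 63.7 and 64.9 CPM, then 91.5 CPM in T1 and 106, 144 and 126 CPM in T2 to T4 (0.95 ± 0.15, adjusted p = 0.00332). The groups did not overlap, and T1 lay between the others in both genes.

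RNA of the sex chromosomes was unevenly spread over the genotypes in this set. Kdm5d, the Y-linked relative of Kdm5c, was 25.3, 29.0 and 19.8 CPM in the Rb1/Trp53 libraries, 39.9 CPM in Rb1/Trp53/Crebbp T1 and 0.123, 0.129 and 0 CPM in T2 to T4. Xist, the RNA of the inactive X, was 3.17 to 9.55 CPM in the first 4 of these libraries and 3115 to 3166 CPM in T2 to T4. With Y-linked RNA as a covariate, an alternative chosen after seeing the data, Kdm6a (0.55, adjusted p = 0.0829, edgeR) and Kdm5c (0.62, adjusted p = 0.0747) did not pass. Y-linked RNA was present in all 3 Rb1/Trp53 libraries but only in T1 of the Rb1/Trp53/Crebbp group. The genotype difference in that fit rests largely on T1, so a lost call cannot tell an effect of sex from lost power. In it 6 chromatin genes remained called higher and 2 lower, beside 3.2% and 1.16% of 14797 genes. Those 8 were Arid5b, Chd6, Setd2, Setdb1, Smarcc1 and Tet2, which rose, and Hdac11 and Setdb2, which fell.

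**Figure D2:**
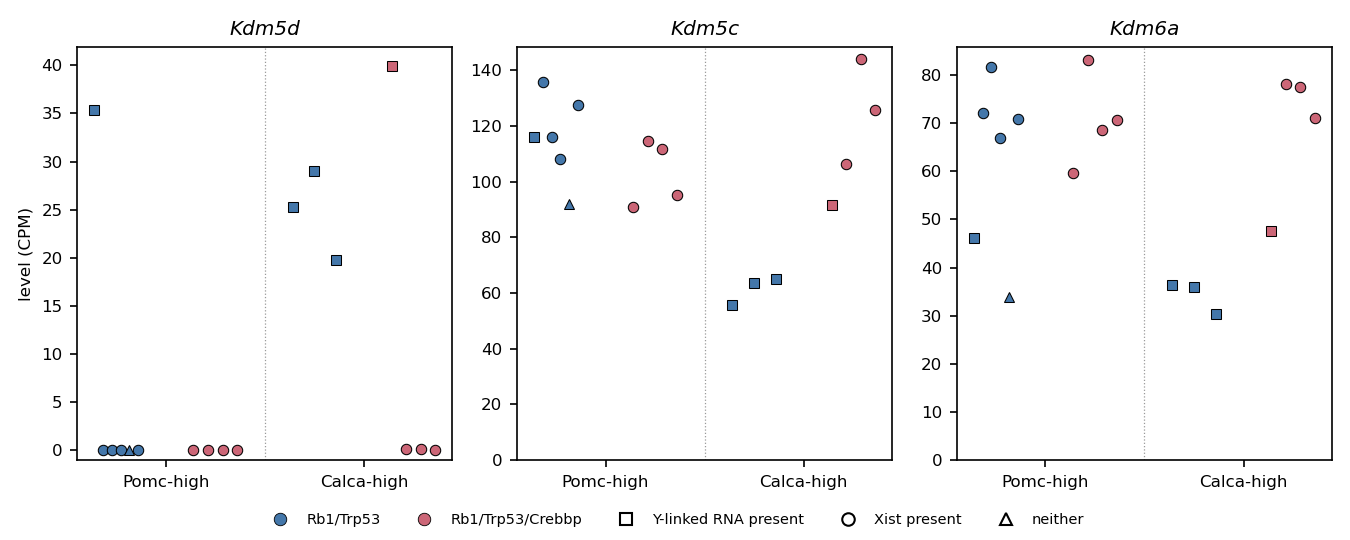
Level in CPM (vertical axes) of the Y-linked Kdm5d and the X-linked Kdm5c and Kdm6a in each library, by set and genotype, with the marker shape giving the sex-linked RNA found. The Calca-high Rb1/Trp53 libraries all hold Y-linked RNA and have Kdm6a at 30.3 to 36.3 CPM, and 3 of the 4 Rb1/Trp53/Crebbp libraries hold Xist and have it at 71.0 CPM or above.

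Remodeller and reader genes rose in part. Of the SWI/SNF core, Smarcc1 was 74.4, 77.3 and 88.5 CPM in the Rb1/Trp53 libraries and 140, 125, 144 and 139 CPM in the others, without overlap (0.79 ± 0.09, adjusted p = 0.00134, edgeR). Its paralog Smarcc2 (0.23 ± 0.09, adjusted p = 0.0773) and the ATPase genes Smarca4 (0.19 ± 0.10) and Smarca2 (0.09 ± 0.09) did not pass. Smarcd3 fell from 8.91 to 14.3 CPM to 6.05 to 7.67 CPM (-0.76 ± 0.20, adjusted p = 0.0196), but 33.0% of its exon bases lie under an opposite-strand gene, Chpf2. With the length trend removed Smarcd3 did not pass. The pseudogene Smarca5-ps was higher at the edge of the threshold (adjusted p = 0.0499) with 1.77 to 3.63 CPM, and it may share reads with Smarca5, so it is uncertain.

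Of 9 Chd genes 5 rose, beside 19.1% of all genes: Chd2 (0.62 ± 0.09), Chd5, Chd6 (0.59 ± 0.10), Chd8 and Chd9. Chd4 (457 to 554 against 522 to 600 CPM) and Chd3, the NuRD motors, did not pass. Of 7 Brd genes Brd3 (0.36 ± 0.08), Brd7 and Brd8 (0.40 ± 0.08) rose, while Brd2 (-0.01 ± 0.11) did not pass. None of these Chd and Brd rises passed with the length trend removed. The Brd7 and Chd5 calls passed in only 2 of the 7 fits that leave out 1 library and Chd9 in 4. Brd7 was lost without Rb1/Trp53 T3 or T4 or Rb1/Trp53/Crebbp T1, T3 or T4 (adjusted p up to 0.0804). Chd5 was lost without any of the 3 Rb1/Trp53 libraries or Rb1/Trp53/Crebbp T3 or T4 (up to 0.116), and Chd9 without Rb1/Trp53 T1 or Rb1/Trp53/Crebbp T3 or T4 (up to 0.0617).

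Other Calca-high calls also rested on single libraries. Setd8 passed in 1 and Kdm4b in 3 of the 7 fits, Kdm2b and Setd1a in 5, and Dnmt3a and Smarcd3 in 6, while Smarca5-ps passed in 0. Dnmt3a was lost without Rb1/Trp53 T3 and Smarcd3 without Rb1/Trp53 T1. Kdm2b and Setd1a were lost without Rb1/Trp53 T3 or Rb1/Trp53/Crebbp T4, and Kdm4b without Rb1/Trp53 T3 or Rb1/Trp53/Crebbp T2, T3 or T4. Setd8 held only without Rb1/Trp53/Crebbp T2. Hdac7 was lost without Rb1/Trp53 T1 or T4 or Rb1/Trp53/Crebbp T1 or T4, and Hdac5 without Rb1/Trp53 T4 or any of the 4 Rb1/Trp53/Crebbp libraries.

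**Figure D3:**
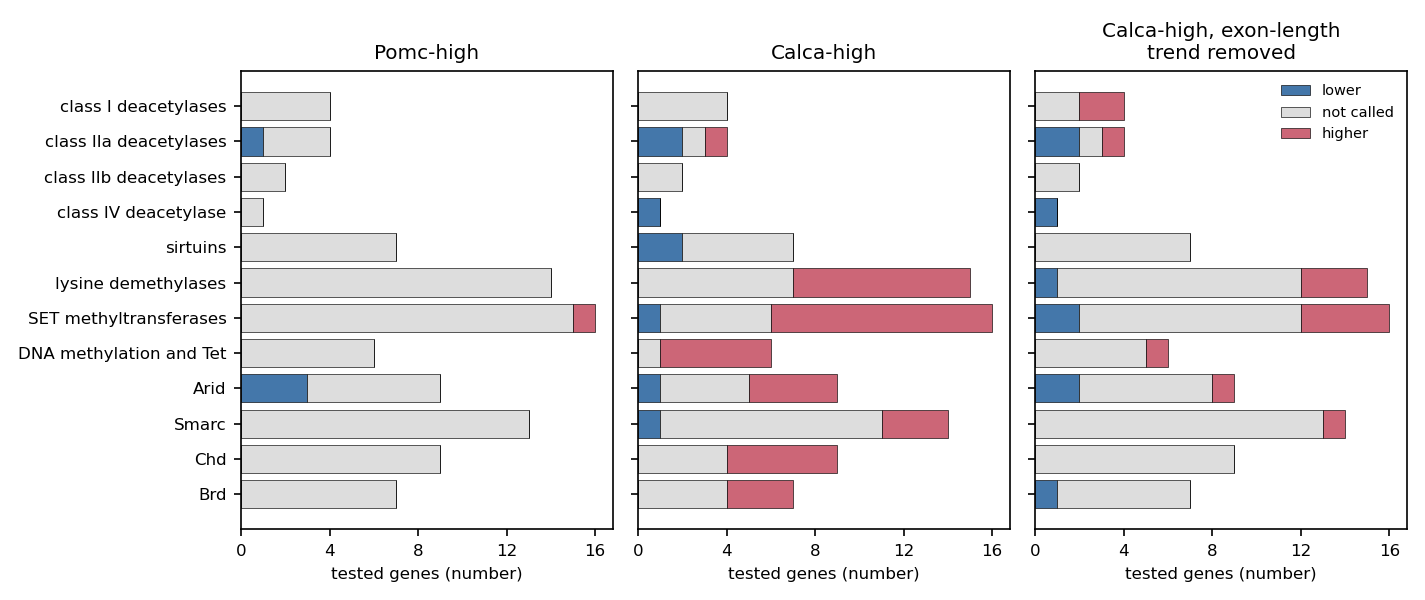
Number of tested chromatin genes in each family (horizontal axes) that were lower, not called or higher in the Rb1/Trp53/Crebbp tumours, in the Pomc-high libraries, the Calca-high libraries and the Calca-high libraries with the exon-length trend removed. All together 39 were higher and 8 lower in the Calca-high libraries, against 13 and 9 with the trend removed.

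The length of a gene's exons went with its genotype difference in the Calca-high libraries. Over 14644 genes the Spearman correlation between exon length and log2 fold change was 0.449, against -0.047 over 13875 genes in the Pomc-high libraries. It is a description across genes, which share libraries. The chromatin genes had a median exon length of 5601.5 bases, against 3316.5 for all genes tested in the Calca-high libraries. Among genes over 8000 bases 55.5% were higher, and 18 of 25 chromatin genes (72.0%) were. Over 4000 and up to 8000 bases the shares were 31.9% of all and 39.5% of the chromatin genes, over 2000 and up to 4000 bases 11.8% and 21.1%, and up to 2000 bases 2.99% and 0%, the last over 7 chromatin genes. The share of reads assigned to no feature was 15.9% to 16.5% in the Rb1/Trp53 and 18.5% to 21.7% in the Rb1/Trp53/Crebbp libraries of this set, and what these reads were was not tested.

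After removal of the length trend 10 of the 39 higher and 5 of the 8 lower chromatin genes stayed called in the Calca-high libraries. The 5 were Setdb2 (-1.99), Hdac11 (-1.06), Hdac7 (-0.92), Hdac5 (-0.83) and Arid3a (-0.78). The 10 were Arid5b (1.22), Hdac4 (0.95), Kdm6a (0.75), Kdm5c (0.60), Kdm3a (0.56), Dnmt1 (0.50), Ezh2 (0.48), Smarcc1 (0.47), Setdb1 (0.45) and Setd8 (0.41). Called after removal alone were Setd6, Hdac8 and Hdac3, which were higher, and 4 genes that were lower, among them Kdm5b, Ezh1 and Arid1b. In the Pomc-high libraries all 5 calls stayed, with 6 higher and 6 lower in all, beside 5.22% and 6.84% of all genes.

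**Figure D4:**
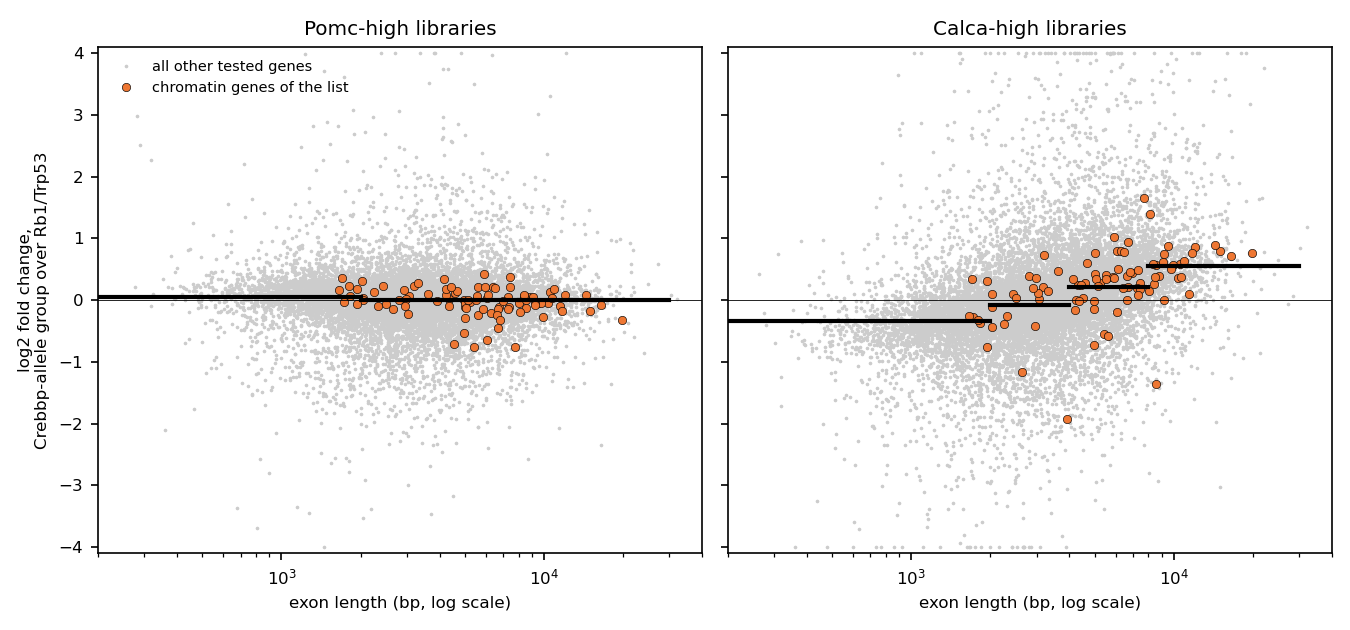
Log2 fold change of each tested gene (vertical axes, values beyond 4 drawn at the edge) against its exon length in bases on a log scale, for both sets, with chromatin genes as large points and black bars at the median of each length class. The medians rise from -0.336 to 0.546 across the classes in the Calca-high libraries and run from 0.059 to -0.002 in the Pomc-high ones.

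The genotype difference itself was compared between the sets by an interaction term over all 17 libraries. It was higher in the Calca-high libraries for 28 of 94 chromatin genes and lower for 6, beside 12.8% and 10% of 15432 genes. With the length trend removed 6 were higher and 6 lower, beside 7.91% and 6.97%. Called in both fits were Arid5b, Hdac4, Dnmt1, Kdm3a, Kdm5c and Setd5, which were higher, and Setdb2, Hdac11 and Setd3, which were lower.

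Arid5b had opposite changes: it fell in the Pomc-high libraries and rose in the Calca-high ones, from 6.60, 5.51 and 5.31 CPM to 12.2, 17.8, 23.9 and 18.1 CPM (1.65 ± 0.23, 3.14-fold, adjusted p = 0.00213, edgeR). The Rb1/Trp53/Crebbp levels of the sets thus overlapped, at 13.4 to 22.5 and 12.2 to 23.9 CPM, while the Rb1/Trp53 levels were far apart. The difference of the log2 fold changes was 2.41 ± 0.31 (adjusted p = 0.000162). Arid5a, its relative, had a difference of 1.44 ± 0.38 (adjusted p = 0.0141) without a call in either set. Setdb2 differed by -1.92 ± 0.24 (adjusted p = 0.000158), Hdac11 by -1.02 ± 0.14 (adjusted p = 0.000305), Dnmt1 by 1.02 ± 0.15 (adjusted p = 0.000346) and Hdac4 by 1.59 ± 0.36 (adjusted p = 0.00575).

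Called in both sets were 3 chromatin genes: Arid3a and Hdac7, which were lower in each, and Arid5b. These are 3.26% of the 92 tested in both sets, near the background of 3.28%, since 447 of 13632 genes were called in both, 321 of them in the same direction. Arid3a was 12.3, 16.2 and 18.9 CPM in the Calca-high Rb1/Trp53 libraries and 8.81, 11.6, 10.8 and 11.5 CPM in the others (-0.55 ± 0.17, adjusted p = 0.0393, edgeR), without overlap. In that set the call was lost in 6 of the 7 fits that leave out 1 library, without Rb1/Trp53 T3 or T4 or any of the 4 Rb1/Trp53/Crebbp libraries (adjusted p up to 0.110).

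**Figure D5:**
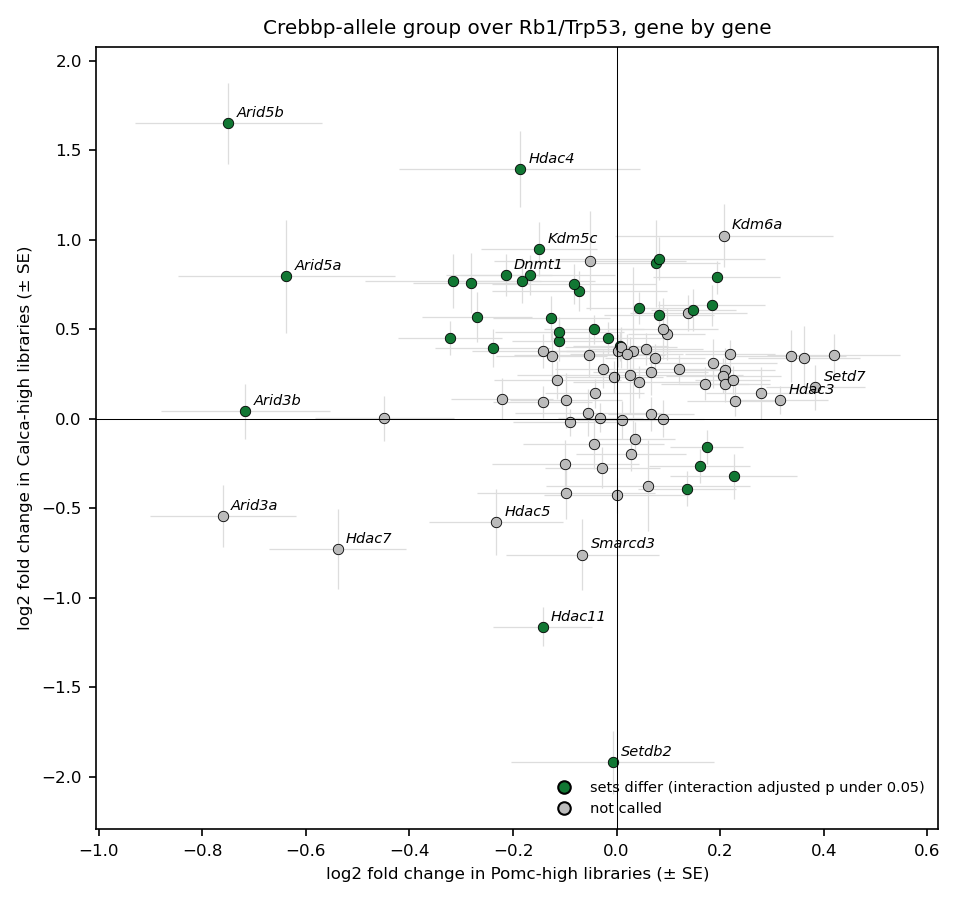
Log2 fold change of each chromatin gene with its SE in the Pomc-high (horizontal axis) and the Calca-high libraries (vertical axis), with filled green points where the difference between the sets passed the threshold. Arid5b lies at -0.75 and 1.65, Arid3a and Hdac7 are below 0 on both axes, and Setdb2 and Hdac11 are low on the vertical axis.

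Over all 17 libraries, the single contrast of the labels, 3 of 92 chromatin genes were higher and 1 lower, beside 1.81% and 2.05% of 14338 genes. Arid3a was the 1 that fell (-0.68 ± 0.11, adjusted p = 0.00394, edgeR), and its highest Rb1/Trp53/Crebbp library, at 11.6 CPM, lay below the lowest Rb1/Trp53 library, at 12.3 CPM, which held for 0.453% of all genes in this direction. Smarcc1 (0.42 ± 0.11, adjusted p = 0.0418), Setdb1 (0.38 ± 0.10, adjusted p = 0.0474) and Hdac6 (0.35 ± 0.10, adjusted p = 0.0498) rose, but passed in only 5, 5 and 4 of the 17 fits that leave out 1 library. With the set as a term in the fit 11 were higher and 5 lower, beside 8.22% and 9.74%: the 5 were Arid3a (-0.69 ± 0.11, adjusted p = 0.000953), Hdac7 (-0.64 ± 0.13), Hdac11 (-0.58 ± 0.14), Setdb2 (-0.92 ± 0.26) and Hdac5 (-0.40 ± 0.12). Of the 11, Hdac6 (0.32 ± 0.09) and Hdac3 (0.21 ± 0.07) were the deacetylases. Of the 17 fits that leave out 1 library, Hdac3 passed in 8, Hdac5 in 9, Setdb2 in 12, Setd7 in 14 and Chd6 in 7 (adjusted p up to 0.0839), and the other 11 calls passed in all 17. Hdac3 was lost without Rb1/Trp53 T3, T5, T6, T8 or T9 or Rb1/Trp53/Crebbp T3, T5, T6 or T8, and Hdac5 without Rb1/Trp53 T4, T6 or T7 or Rb1/Trp53/Crebbp T1, T2, T4, T6 or T7.

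Partner genes outside the 97 were counted by lists, to be read beside the 3.15% higher and 5.26% lower of all genes in the Pomc-high and the 19.1% and 17.1% in the Calca-high libraries. With the length trend removed, the Calca-high counts given below became 4 higher and 4 lower for Polycomb subunits, 5 and 4 for deacetylase complexes, 1 and 1 for other methyltransferases, 2 and 1 for methyl-CpG binders and 2 and 1 for other remodeller subunits, beside 12.3% and 12.5% of all genes. Polycomb subunits had 1 higher and 2 lower of 25 in the Pomc-high libraries: Bmi1 rose (27.9 to 36.7 against 42.8 to 52.7 CPM, 0.54 ± 0.10), and Aebp2 (-0.44 ± 0.08) was among those that fell. In the Calca-high libraries 7 rose and 4 fell, among them Pcgf3 (0.99 ± 0.13) and the Ezh2 partner Suz12 (0.67 ± 0.10), which rose, and Phf1 and Ring1, which fell. The median log2 fold changes of the list were 0.004 and 0.12.

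Subunits of deacetylase complexes had 1 higher and 1 lower of 20 in the Pomc-high libraries, and the one that rose was the corepressor Sin3b (0.29 ± 0.08). In the Calca-high libraries 6 rose and 3 fell. There Rcor1 of the CoREST complex rose from 11.3 to 11.7 CPM to 27.8 to 43.0 CPM (1.61 ± 0.16, adjusted p = 0.000982, edgeR), the NuRD subunit gene Gatad2b rose by 1.77 ± 0.25 and Rcor2 fell by 0.84 ± 0.12. The list's medians were 0.054 and 0.015.

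Other histone methyltransferases and COMPASS subunits had 1 higher (Suv39h1, 0.46 ± 0.11) and 0 lower of 27 in the Pomc-high libraries, with 4 at an unadjusted p under 0.05, and 11 higher and 2 lower in the Calca-high ones, led by the H3K79 methyltransferase Dot1l (1.12 ± 0.13). Methyl-CpG binders and partners had 1 higher and 2 lower of 11 in the Pomc-high libraries, all 3 in the Gadd45 stress-response family: Gadd45a (-0.72 ± 0.12) and Gadd45g (-1.08 ± 0.26) fell and Gadd45b (0.94 ± 0.27) rose. In the Calca-high libraries 6 of 12 rose and 1 fell. Other remodeller subunits had 0 higher and 1 lower of 25 (Ss18, -0.29 ± 0.07) with 4 at an unadjusted p under 0.05, against 11 higher and 3 lower of 26 in the Calca-high libraries, led by Hells (1.05 ± 0.09), a remodeller that DNA methylation depends on. The medians of these 3 lists were 0.038, -0.107 and 0.004 in the Pomc-high and 0.16, 0.33 and 0.26 in the Calca-high libraries.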

How the data were processed

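Per the labels' protocols, TRIzol was used for extraction and oligo-dT beads and a NEBNext Ultra kit for the libraries. The authors deposited raw read counts per gene symbol, 1 table per tumour. Per the submitters' processing notes reads were handled with HTSeq 0.6.1, TopHat2 2.0.12 and bcl2fastq 1.8.2 on mm9; neither annotation nor strand setting is given in the sources used here. The 5 rows that name no gene held 21.7% to 35.5% of the counts and were left out. No 2 libraries of a genotype were duplicates (64 pairs, chi-square per degree of freedom at least 8.30). Counts were tested in R 4.3.3 with edgeR 4.0.16: filterByExpr by genotype (by genotype and set for the interaction), TMM, the robust quasi-likelihood test and Benjamini-Hochberg adjustment over all genes tested, with a threshold of 0.05. CPM values are scaled by TMM over the 17 libraries, and the SE is the log2 fold change divided by the root of F. Not tested for low counts were Arid3c, Dnmt3l and Kdm4d, and in the Pomc-high libraries also Kdm5d and Smarca5-ps. Exon lengths are unions of GENCODE exons on GRCm38, used without coordinates; all 97 members had one, Mll2 as Kmt2d by elimination. The length alternative removed from each library a lowess trend (span 0.3) of log2(CPM + 0.5) deviations on log2 length. Alternatives were other scalings and filters, DESeq2 1.42.0, limma-voom (limma 3.58.1), a block for the tumour number, a Y-linked covariate and leaving out each library; the fits were tested on simulated counts. Genes and lists were chosen with earlier results of these data known. Named genes are those called in a set or in the difference between the sets (the 30 with the smallest adjusted p where there are more), all Hdac genes, the gene with the smallest p of each family, and up to 4 called genes of each partner list; others are given as examples after their values were seen. Figures were drawn with matplotlib 3.10.9. Results for some genes are not reported here.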

Additional observations from a re-analysis of the deposited data

Results flagged for a closer look

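Single libraries lay far from the rest of their group for 14 of 189 groups checked, each 4 or 6 libraries of 1 genotype in 1 set (the 3 Calca-high Rb1/Trp53 libraries were too few to check), where chance gives about 1 in 20. In the Pomc-high libraries these were Rb1/Trp53 T2 with Arid5b at 39.1, Dnmt1 at 323 and Kdm5d at 35.4 CPM, T5 with Brd7 at 41.4 CPM, T6 with Smarcd3 at 53.0 CPM, and Rb1/Trp53/Crebbp T5 with Hdac4 at 6.73, T6 with Arid5b at 22.5 and T8 with Arid1a at 144 CPM. In the Calca-high libraries they were Rb1/Trp53/Crebbp T1 with Kdm5d at 39.9 CPM, T2 with Chd6 at 118 CPM and T3 with Arid3b at 7.40, Hdac9 at 10.7, Kdm6b at 174 and Tet1 at 42.3 CPM. Each library flagged for the Y-linked Kdm5d was the only one of its group with Y-linked RNA. The groups share libraries, so the flags are not independent of each other.

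A difference in the genotype effect between the sets passed the test (edgeR interaction, adjusted p under 0.05) for 34 chromatin genes, each given as the Calca-high minus the Pomc-high log2 fold change. Of the deacetylases and sirtuins these were Hdac4 (1.59), Hdac11 (-1.02), Sirt2 (-0.52) and Sirt7 (-0.54). Of the demethylases they were Kdm2a (0.55), Kdm3a (1.04), Kdm3b (0.47), Kdm5a (0.46) and Kdm5c (1.10). The SET genes were Setdb2 (-1.92), Setdb1 (0.47), Setd1a (0.64), Setd2 (0.51), Setd3 (-0.33), Setd5 (0.78), Mll1 (0.80), Mll2 (1.09), Mll3 (0.98) and Mll5 (0.60). The DNA methylation genes were Dnmt1 (1.02), Dnmt3a (0.85), Tet1 (0.82), Tet2 (0.84) and Tet3 (0.96). The remodeller and reader genes were Arid1a (0.70), Arid3b (0.76), Arid4a (0.55), Arid5a (1.44), Arid5b (2.41), Brd8 (0.40), Chd2 (0.58), Chd9 (0.80), Smarcb1 (-0.42) and Smarcc1 (0.60). Lost without Rb1/Trp53/Crebbp T8, the library with glial markers, were Arid3b, Brd8, Chd9, Kdm3b, Kdm5a, Mll1, Mll5, Setd2, Setdb1, Smarcc1 and Tet1. Depth and markers of dividing cells, endothelium, lymphocytes, fat, thyroid follicle, C cells, and melanotrophs and corticotrophs also differed by genotype in the Calca-high libraries. Y-linked RNA there overlapped in range (101 to 125 against 0.129 to 143 CPM). It was present in all Rb1/Trp53 libraries but only in T1 of the Rb1/Trp53/Crebbp group. The part of depth, these markers and Y-linked RNA in the differences between the sets was not tested.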

How the results depend on the processing

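Counts below are chromatin genes with higher and with lower levels in the tumours of the Rb1/Trp53/Crebbp genotype. Leaving out 1 library gave 0 to 2 higher and 1 to 4 lower in the Pomc-high libraries (1 lower without Rb1/Trp53/Crebbp T7, 2 without T8). In the Calca-high ones it gave 31 to 38 and 5 to 7 (5 lower without Rb1/Trp53/Crebbp T4). Over all 17 it gave 0 to 5 and 1 to 2 (5 higher without Rb1/Trp53/Crebbp T8), and 8 to 18 and 3 to 7 with the set as a term. For the difference between sets it gave 17 to 33 and 3 to 7. There 17 were higher without Rb1/Trp53 T1 and 18 without Rb1/Trp53/Crebbp T3 or T8, and 3 were lower without Rb1/Trp53 T4 or Rb1/Trp53/Crebbp T5. Of the 47 calls in the Calca-high libraries 33 held in all 7 of these fits, of the 5 in the Pomc-high libraries 1 (Arid3a) held in all 10, and of the 34 differences between sets 20 held in all 17. Arid5b, Hdac11, Setdb1, Setdb2 and Smarcc1 held in the Calca-high libraries under each alternative run. DESeq2 gave 7 higher and 7 lower in the Pomc-high libraries, beside 5.95% and 7.87% of all genes, and 8 and 3 over all 17, beside 5.17% and 4.58%. With the set as a term it gave 20 higher, beside 11.4% of all genes, where limma-voom gave 18, beside 10.6%. One fit over 4 genotype-by-set groups gave 4 higher in the Pomc-high libraries, beside 3.69% of all genes. Without a low-count filter 0 were higher over all 17, beside 1.12%. The cause of these shifts was not tested.

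Whether the tumour numbers of the labels pair the samples was checked on deviations from the mean of each genotype and set. Same-numbered tumours correlated between -0.174 and 0.208 over 8 pairs, and 1 of 8 matched its own number best. Such deviations leave out any likeness by set, where only number 2 differed between the genotypes, so the check cannot exclude pairing. With the number as a replicate block 0 were higher and 0 lower in the Pomc-high libraries, beside 0.628% and 1.9% of all genes. Lower were 2 in the Calca-high libraries, beside 7.91%, and 2 over all 17, beside 1.69%. With the set as a term 2 were higher and 2 lower, beside 1.73% and 2.64%. For the difference between sets 12 were higher and 2 lower, beside 5.72% and 2.4%. With Y-linked RNA as a covariate 6 were higher and 2 lower in the Calca-high libraries, beside 3.2% and 1.16% of all genes. Over all 17 with the set as a term there were 6 and 2, beside 3.8% and 5.47%. With the exon-length trend removed, the Pomc-high libraries had 6 higher, beside 5.22% of all genes, and the Calca-high libraries 13, beside 12.3%. Lower were 2 over all 17, beside 2.13%, and 9 with the set as a term, beside 10.7%. For the difference between sets 6 were higher, beside 7.91%. That setting turned the sign of Arid2 (-0.089), Chd8 (-0.083), Kdm2a (-0.027), Mll1 (-0.014) and Mll2 (-0.012) in the Calca-high libraries and of Kdm5a (-0.112) in the difference between sets. Other scalings and filters changed none of the other counts by more than 1.5 times. Where a gene is near 1 CPM, few reads stand behind its value at the lower depths.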

Other observations

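In the Pomc-high set 2 libraries stood apart in sex-linked RNA. Rb1/Trp53 T2 held Y-linked RNA (3 genes summing to 162 CPM, with Kdm5d at 35.4 CPM) and Xist at 2.07 CPM. Rb1/Trp53 T8 held neither, with Y-linked RNA at 0 CPM and Xist at 4.81 CPM, where the other 8 libraries had Xist at 944 to 2457 CPM. Kdm6a was 46.1 CPM in T2 and 33.9 CPM in T8, below the 59.7 to 83.2 CPM of the other 8, while Kdm5c was 116 and 91.9 CPM, within their range of 90.8 to 136 CPM.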
